A study of Mus musculus with 2 samples.

Results

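Cadherins and protocadherins are membrane proteins that hold neighbouring cells together or sort them by the members they display. They were described here in mouse embryonic fibroblasts, a primary connective tissue culture. The genes were taken by name, as every array gene called Cdh followed by a number or Pcdh followed by any suffix. This gave 116 probes for 67 of the 27745 gene names on the array, of which 23 were cadherins and 44 protocadherins. RNA from fibroblasts without the Hippo pathway kinase Lats2 was compared with RNA from wild-type fibroblasts, to ask how loss of Lats2 alters expression. The genotypes are spelled LATS2-/- (KO) and LATS2+/+ (WT) in the sample titles and LAT2-/- and LAT2+/+ in the genotype field. Both came from C57BL/6J mice, and neither culture received a treatment. No allele design, embryonic age, number of embryos or clone is given in the labels. Both RNAs were hybridised together on each of 2 two-colour Agilent arrays, 1 with KO RNA in Cy5 and WT RNA in Cy3 and 1 with the dyes exchanged. Because no second culture of either genotype was named, the arrays were read as a dye swap of 1 pair of RNAs. The SD given with each ratio is therefore that between 2 arrays. It covers dye and hybridisation error and leaves out the spread between cultures, so a test over the arrays compares these RNAs and not the genotypes. No p-value is given.

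Classical cadherins bind the same cadherin on the next cell through their outer repeats in the presence of calcium, and their tails reach the actin cytoskeleton through catenins. Fibroblasts are known for N-cadherin (Cdh2) and cadherin 11 (Cdh11), epithelium for E-cadherin (Cdh1) and endothelium for VE-cadherin (Cdh5). Protocadherins have related outer repeats but tails that do not bind catenins in the classical way. Most of them lie in alpha, beta and gamma gene clusters, from which neurons choose combinations that mark cell identity, and the remainder are single genes.

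The KO-labelled RNA did not show less Lats2 signal. Of the 4 Lats2 probes, 3 gave log2 ratios of KO over WT of 0.56 to 0.63 and the fourth gave -0.35, all above background, while the Lats1 probe gave -0.03. The deleted stretch of Lats2 is not given in the sources used here, so whether these probes lie outside it is unknown. Every direction below rests on the labels, and the RNAs are named by them, as KO-labelled and WT-labelled RNA.

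A probe was called when its 2 array ratios were each at least 2-fold in the same direction and it was well above local background, by the scanner software's flag, on both arrays in the RNA where it was higher. Where a gene had several probes, its brightest one represented it. Of the 67 genes, 34 were above background in at least 1 RNA and 29 in both. Among those 34, 1 was called higher in the KO-labelled RNA (2.94%), Cdh4, against 2.95% of the 15877 array genes above background. Cdh13 and Pcdh20 were called lower (5.88%, 2 genes) against 2.61% of array genes. With counts this small neither share sets the group apart from the array as a whole. The median log2 ratio of the 34 genes was -0.05, beside -0.0037 for all array genes above background, and 15 were positive and 16 negative on both arrays. Of the 34 genes, 9 (26.5%) moved by at least 0.5 log2 units in 1 direction on both arrays, as did 18.1% of array genes. In bulk RNA such as this, fewer cells of a type and less RNA per cell cannot be told apart. The plot of log2 ratios by gene shows all 34.

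**Figure D1:**
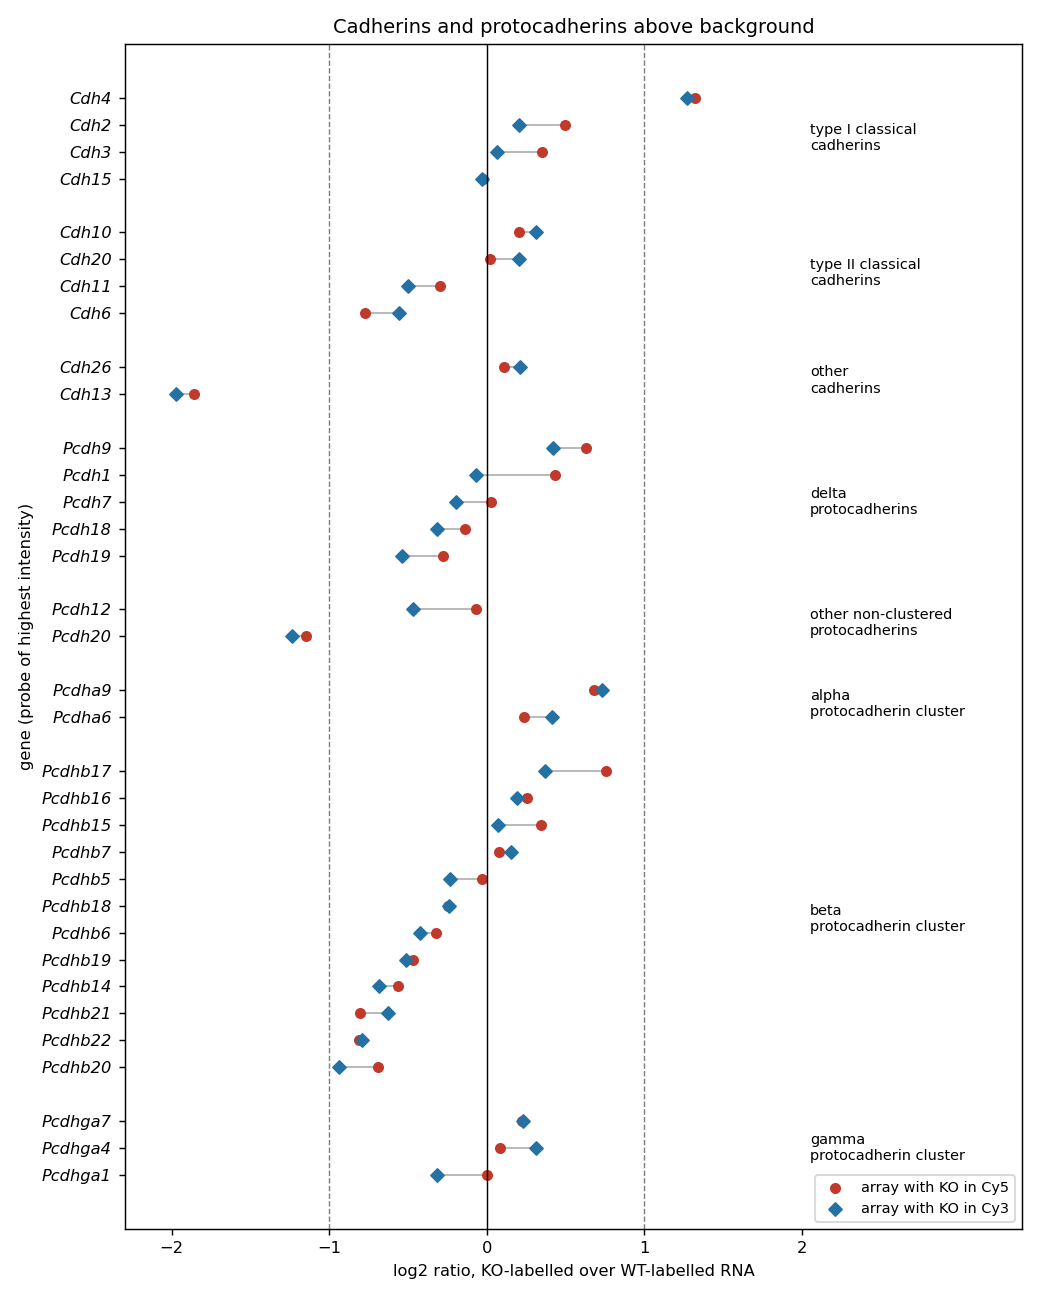
Log2 ratio of the KO-labelled RNA over the WT-labelled RNA (x axis) for the 34 cadherin and protocadherin genes above background (y axis), in 8 groups. Circles are the array with KO in Cy5, diamonds the array with KO in Cy3, and dashed lines mark 2-fold. Cdh4 lies beyond the line on the right, and Cdh13 and Pcdh20 beyond the line on the left, on both arrays.

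Cdh13 was the only called gene of the group that was well above background in both RNAs. It encodes T-cadherin, which is held in the membrane by a lipid anchor and has no cytoplasmic tail, so it does not bind catenins. Its normalised intensity (arbitrary units, log2 ratios computed after an offset of 50) was 3605 and 3258 in the KO-labelled RNA on the arrays with KO in Cy5 and in Cy3, and 13094 and 12795 in the WT-labelled RNA. On both arrays the WT value lay far above the KO value. The log2 ratios were -1.86 and -1.97 (mean -1.92, SD 0.08), which left 26.5% of the level in the WT-labelled RNA. This probe is designed to the reference transcript and lies at chr8:122200046-122200105 (mm8). Centred by its median without loess, the array with KO in Cy5 gave -0.87 and the other -2.81, which ended the call. A second probe, from a cDNA clone at chr8:121738151-121738210, was also above background but dim, and gave only -0.28. The probes differ in both brightness and source, and the reason for their difference was not tested.

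Pcdh20, a protocadherin outside the gene clusters, was also lower in the KO-labelled RNA. Its intensity was 65.6 and 74.7 in the KO-labelled RNA, not well above background on either array, and 145 and 176 in the WT-labelled RNA. The WT values were thus the higher ones on both arrays, close to the bottom of the measured range. Because the KO value is only a bound, Pcdh20 was higher by at least 2.28-fold in the WT-labelled RNA, with log2 ratios of -1.15 and -1.24 (mean -1.19, SD 0.06). A single probe at chr14:87313361-87313420 (mm8) represents the gene. Feature Extraction's own ratio, which adds no offset, was -4.54 for the same probe, and without background subtraction it was -0.94, which ended the call, so the direction was shared while the size depended on how the dim channel was treated.

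Cdh4 encodes R-cadherin, a classical cadherin first described in the retina. Its brightest probe, at chr2:179828521-179828580 (mm8), read 195 and 151 in the KO-labelled RNA and 78.2 and 62.6 in the WT-labelled RNA. The KO values were the higher on both arrays, and the WT values were not well above background on either. Cdh4 was accordingly at least 2.46-fold higher in the KO-labelled RNA, at log2 ratios of 1.32 and 1.27 (mean 1.30, SD 0.03). Feature Extraction's own ratio was 5.03, and 1.02 without background subtraction, where the call was lost. The call rests on a probe designed to a cDNA clone. The other 2 Cdh4 probes were not above background in either RNA and gave 0.05 and 0.10, and the mean over all Cdh4 probes, 0.48, was not called.

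**Figure D2:**
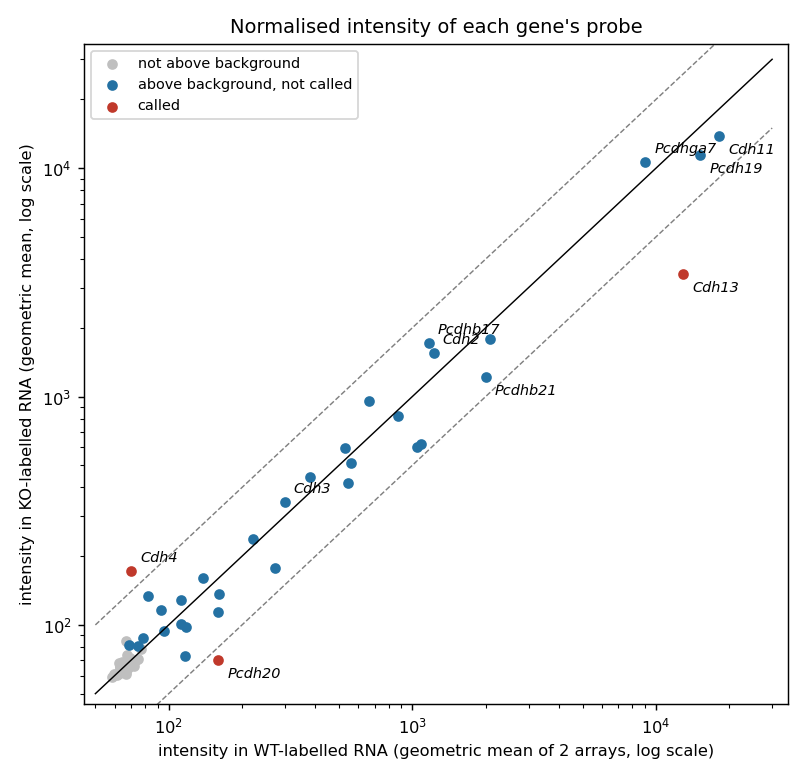
Normalised intensity in the KO-labelled RNA against that in the WT-labelled RNA for the standing probe of each of the 67 genes (log scales, arbitrary units, geometric mean of 2 arrays). The solid line marks equal values and dashed lines 2-fold. Cdh13 is called in the bright range, while Pcdh20 and Cdh4 lie next to the cloud of genes not above background.

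Of the cadherins that define tissues, Cdh1 and Cdh5 were not above background with any probe, in either RNA. Neither did the kidney and gut cadherins Cdh16 and Cdh17 pass. Cdh2 was present at 1649 and 1474 in the KO-labelled RNA and 1171 and 1280 in the WT-labelled RNA. Its ratios of 0.49 and 0.20 (mean 0.35, SD 0.21) did not reach 2-fold, and its 2 other probes gave 0.15 and -0.11. Cdh3, or P-cadherin, gave 0.35 and 0.07 (mean 0.21, SD 0.20), from 363 and 330 in the KO-labelled RNA and 284 and 315 in the WT-labelled RNA. For both genes the array with KO in Cy5 gave the larger value.

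Cdh11, the mesenchymal cadherin of fibroblasts and osteoblasts, was well above background at 14280 and 13364 in the KO-labelled RNA and 17525 and 18917 in the WT-labelled RNA. The ratios of its brightest probe were -0.30 and -0.50 (mean -0.40, SD 0.15). A neighbouring probe gave a mean of -0.44 but varied from -0.12 to -0.75 between the arrays, and the third probe gave 0.09. No Cdh11 probe was called. Of the other type II cadherins, Cdh6 was above background only in the WT-labelled RNA, at 113 and 119 against 66.1 and 81.3, a bound of at least 1.58-fold, and was not called. Cdh10 was above background only in the KO-labelled RNA and only with its brightest probe, at 79.9 and 83.9 against 69.4 and 67.5, or 1.20-fold. Its other probes were not above background in either RNA and gave means from -0.05 to 0.19. Cdh20 lay at 0.11, Cdh15 (M-cadherin of muscle) at -0.03 and Cdh26 at 0.16.

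Among the delta protocadherins, a subgroup with conserved tail motifs, 5 of 9 genes were above background and none was called. Pcdh19, an X-linked gene whose human counterpart is mutated in an epilepsy of girls, was bright, at 11688 and 11218 in the KO-labelled RNA and 14176 and 16329 in the WT-labelled RNA. It gave -0.28 and -0.54 (mean -0.41, SD 0.19), and its second probe gave -0.15. Pcdh9 went the other way, from 639 and 694 in the WT-labelled RNA to 990 and 930 in the KO-labelled RNA (mean 0.53, SD 0.15). Its 4 other probes above background gave 0.35, 0.34, 0.27 and 0.00. Pcdh18 gave -0.23, Pcdh7 -0.08 and Pcdh1 0.18, and the last 2 changed sign between the arrays. Pcdh12, known from endothelium and outside the delta group, gave -0.27 at intensities of 95.5 to 139.

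**Figure D3:**
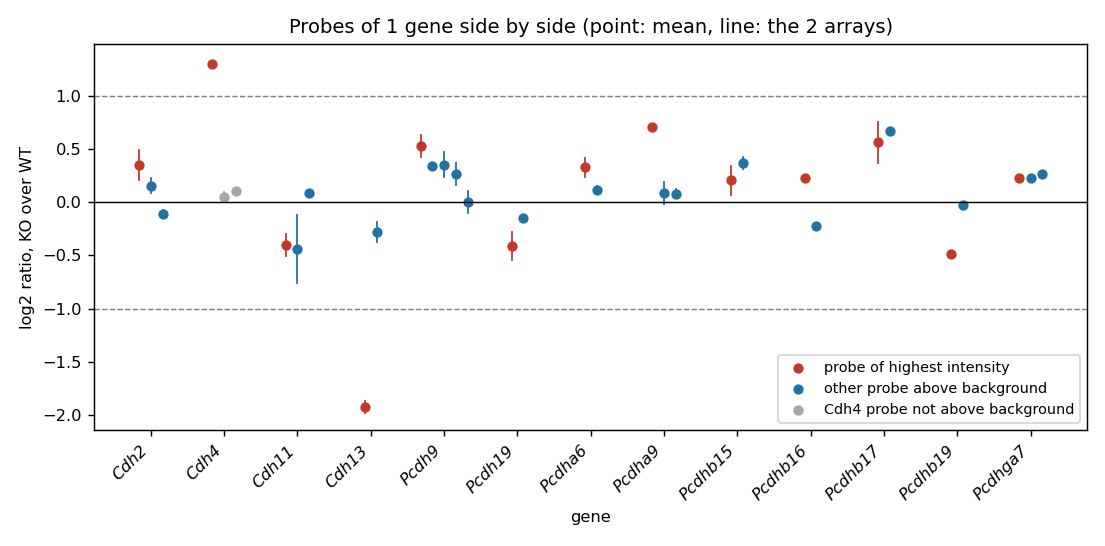
Log2 ratio of KO over WT (y axis) for each probe of the 12 genes with 2 or more probes above background, and of Cdh4 with its 2 probes below background in grey. Points are means, vertical lines join the 2 arrays, and dashed lines mark 2-fold. Cdh13 and Cdh4 are the genes whose probes lie more than 1 log2 unit apart.

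The beta cluster holds genes of a single exon each, side by side. By probe position the genes ran from Pcdhb1 to Pcdhb22. All 9 from Pcdhb14 to Pcdhb22 were above background, against 3 of the 13 before them, Pcdhb5, Pcdhb6 and Pcdhb7. None of the 22 was called. At the end of the cluster Pcdhb20, Pcdhb21 and Pcdhb22 were all lower in the KO-labelled RNA, with ratios between -0.63 and -0.94 on every array. Their intensities in the KO-labelled RNA were 654 and 582 for Pcdhb20, 1186 and 1248 for Pcdhb21 and 579 and 619 for Pcdhb22. In the WT-labelled RNA the same genes read 1055 and 1116, 2072 and 1926, and 1015 and 1071. Each of these genes kept 1 sign on both arrays of this pair of RNAs. Of the 15877 array genes above background, 6578 were lower and 6388 higher on both arrays. The mean ratios were -0.81 (SD 0.18), -0.72 (SD 0.13) and -0.80 (SD 0.01), short of 2-fold but past 1.5-fold on both arrays.

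Pcdhb17, a short distance upstream, was higher in the KO-labelled RNA. It read 1871 and 1585 against 1109 and 1226, with a mean of 0.56 (SD 0.27), and its second probe gave 0.66 with SD 0.04. Pcdhb15 and Pcdhb16 gave 0.21 and 0.22 with their brightest probes, and the second Pcdhb16 probe gave -0.22. Pcdhb14, Pcdhb18 and Pcdhb19 gave -0.62, -0.24 and -0.49, and the second Pcdhb19 probe gave -0.03. By their brightest probes, 6 genes in the run from Pcdhb14 on were therefore lower and 3 higher on both arrays. Beta genes are similar in sequence, and the annotation of the Pcdhb18 probe names transcripts of Pcdhb17, Pcdhb18 and Pcdhb20, so its signal may hold more than 1 gene. Whether other probes shared signal was not tested.

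**Figure D4:**
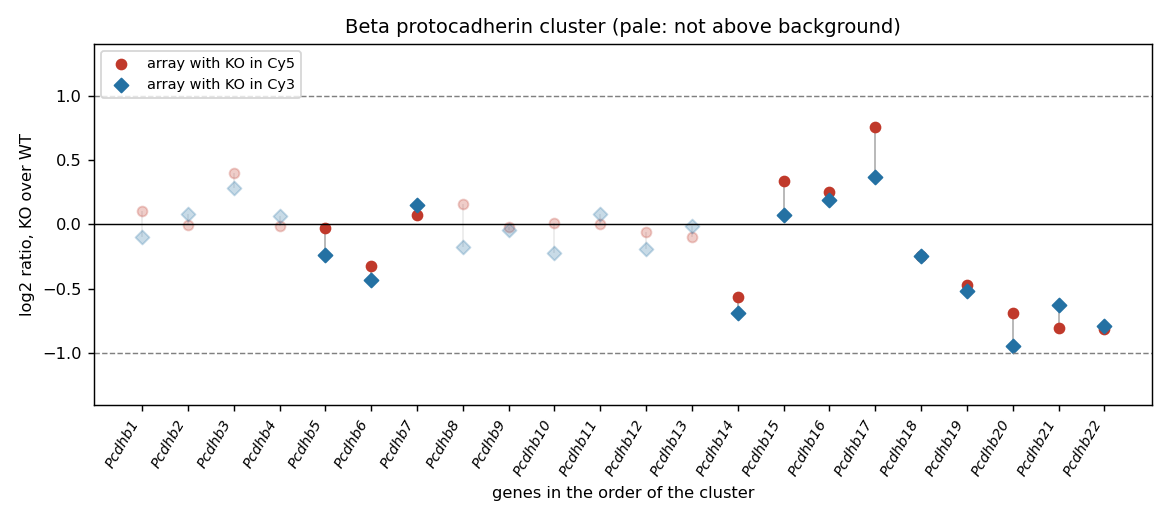
Log2 ratio of KO over WT (y axis) for the 22 beta protocadherin genes in the order of the cluster (x axis). Circles are the array with KO in Cy5, diamonds the array with KO in Cy3, pale symbols genes not above background, and dashed lines 2-fold. Pcdhb15 to Pcdhb17 lie above 0, and Pcdhb18 to Pcdhb22 below, on both arrays.

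Genes of the alpha and gamma clusters splice a variable first exon to shared constant exons. Pcdha9 gave the largest ratio among them, from 92.7 and 72.3 in the WT-labelled RNA to 148 and 120 in the KO-labelled RNA (mean 0.70, SD 0.04). Annotation names 4 alpha genes for that probe, and the Pcdha9 probe that names 1 gene gave 0.09, so the larger ratio cannot be assigned to Pcdha9 alone. Pcdha6 gave 0.33, also from a probe naming 4 genes. Its own probe was above background only in the KO-labelled RNA. That probe gave 0.11, below the single-probe SD of 0.14 between arrays. Of the gamma genes, Pcdhga7 had 3 probes above background at 0.23, 0.23 and 0.26, each naming transcripts of Pcdhga6, Pcdhga7 and Pcdhga9. The brightest of them read 10455 and 10775 in the KO-labelled RNA and 8949 and 9173 in the WT-labelled RNA. These ratios cannot be assigned to Pcdhga7 alone either. Pcdhga4 and Pcdhga1 gave 0.20 and -0.16.

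The remaining 33 genes, 13 cadherins and 20 protocadherins, had no probe above background on both arrays in either RNA. Their 50 probes had mean ratios from -0.13 to 0.34, and none reached 2-fold. At these intensities a difference was not detectable, which does not show that the genes are silent.

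RefSeq promoter sequences (GRCm38.p6, 250 bases before to 50 after the start) were at hand for 23 of the 67 genes, Pcdh20 the only called one among them. They were searched on both strands for CACCTG, an E-box that Snail and Zeb repressors of Cdh1 recognise, and for GGAATG, a motif of the TEAD factors on which the Hippo pathway acts. CACCTG stood in 6 of 26 promoters of these genes (23.1%) and in 20.2% of all 32851 promoters. GGAATG stood in 3 of the 26 (11.5%) and in 14.7% of all. The Pcdh20 promoter, on the minus strand at chr14:88471347-88471646, is shown because that gene was called. It holds neither motif, which says only that these letters are absent from this window. The Pcdh7 promoter, on the plus strand at chr5:57717831-57718130, is shown beside it for contrast, with its CACCTG match, read on the opposite strand, in capitals. Pcdh7 did not differ beyond the spread of its arrays.
Pcdh20: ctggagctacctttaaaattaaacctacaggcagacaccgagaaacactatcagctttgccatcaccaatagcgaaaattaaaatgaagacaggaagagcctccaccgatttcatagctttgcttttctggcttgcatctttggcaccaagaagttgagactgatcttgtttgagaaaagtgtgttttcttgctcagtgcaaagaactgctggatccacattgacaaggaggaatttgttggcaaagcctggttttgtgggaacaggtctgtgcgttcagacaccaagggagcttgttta
Pcdh7: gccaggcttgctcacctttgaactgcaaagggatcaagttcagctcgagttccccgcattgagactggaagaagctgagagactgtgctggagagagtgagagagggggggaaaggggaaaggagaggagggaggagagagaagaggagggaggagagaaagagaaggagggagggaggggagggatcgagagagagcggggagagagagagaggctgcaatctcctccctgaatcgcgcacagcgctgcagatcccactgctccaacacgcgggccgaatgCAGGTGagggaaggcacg

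Genes that work with cadherins at the junction were taken from a list of catenins, nectins, actin linkers, desmosomal proteins, atypical cadherins and cadherin-cleaving enzymes. Of its 61 genes with a value, 43 were above background. Among these 3 were called higher (6.98%) and 2 lower (4.65%), beside the 2.95% and 2.61% of array genes, with a median log2 ratio of 0.06.

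The catenins that every classical cadherin uses were not called. Ctnnb1 (beta-catenin) gave -0.09, Ctnna1 (alpha-E-catenin) -0.34, Ctnnd1 (p120-catenin) 0.15 and Jup (plakoglobin) 0.01. Ctnna2, the alpha-catenin of neurons, was higher in the KO-labelled RNA, at 932 and 637 against 101 and 67.1. The difference was present on both arrays, at log2 ratios of 3.21 and 3.25 (mean 3.23, SD 0.03). Its size rested on a dim WT-labelled signal, and was 2.81 without background subtraction and 5.09 by the ratio of Feature Extraction. A second reference probe gave 2.17 and was called, and a cDNA clone probe gave 0.29. Ctnnal1 (alpha-catulin) was lower, at 871 and 857 against 1834 and 2101 (mean -1.18, SD 0.15), while its 3 other probes above background gave -0.48, -0.43 and -0.29. The call was lost under median centring, at -0.27 and -2.07 on the 2 arrays.

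Pvrl1 encodes nectin-1, an immunoglobulin-type adhesion molecule that joins cadherin junctions through afadin. It was higher in the KO-labelled RNA, at 2762 and 2973 against 1213 and 1215 (mean 1.24, SD 0.07). Median centring gave 2.04 and 0.50 on the 2 arrays, which ended the call. Perp, a membrane protein of desmosomes and a p53 target, was at least 3.50-fold higher in the KO-labelled RNA, since its signal in the WT-labelled RNA was not well above background. The desmosomal genes as a whole were mostly not measurable, with 5 of 15 above background. Of these, 2 were higher and 3 lower in the KO-labelled RNA on both arrays. Dsp gave -0.95 and -1.13 (mean -1.04) and was not called, because the array with KO in Cy5 fell short of 2-fold. Another Dsp probe above background gave -0.70, and those not above background gave -0.05 and 0.10. With an offset of 10, by Feature Extraction's ratio or by limma, Dsp was called lower. Mmp3 encodes stromelysin-1, a matrix protease that can cleave E-cadherin, and was lower in the KO-labelled RNA, at 130 and 163 against 761 and 904 (mean -2.51, SD 0.06), a ratio of -3.28 by Feature Extraction. None of the 10 actin linkers or the 7 atypical cadherins above background was called.

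**Figure D5:**
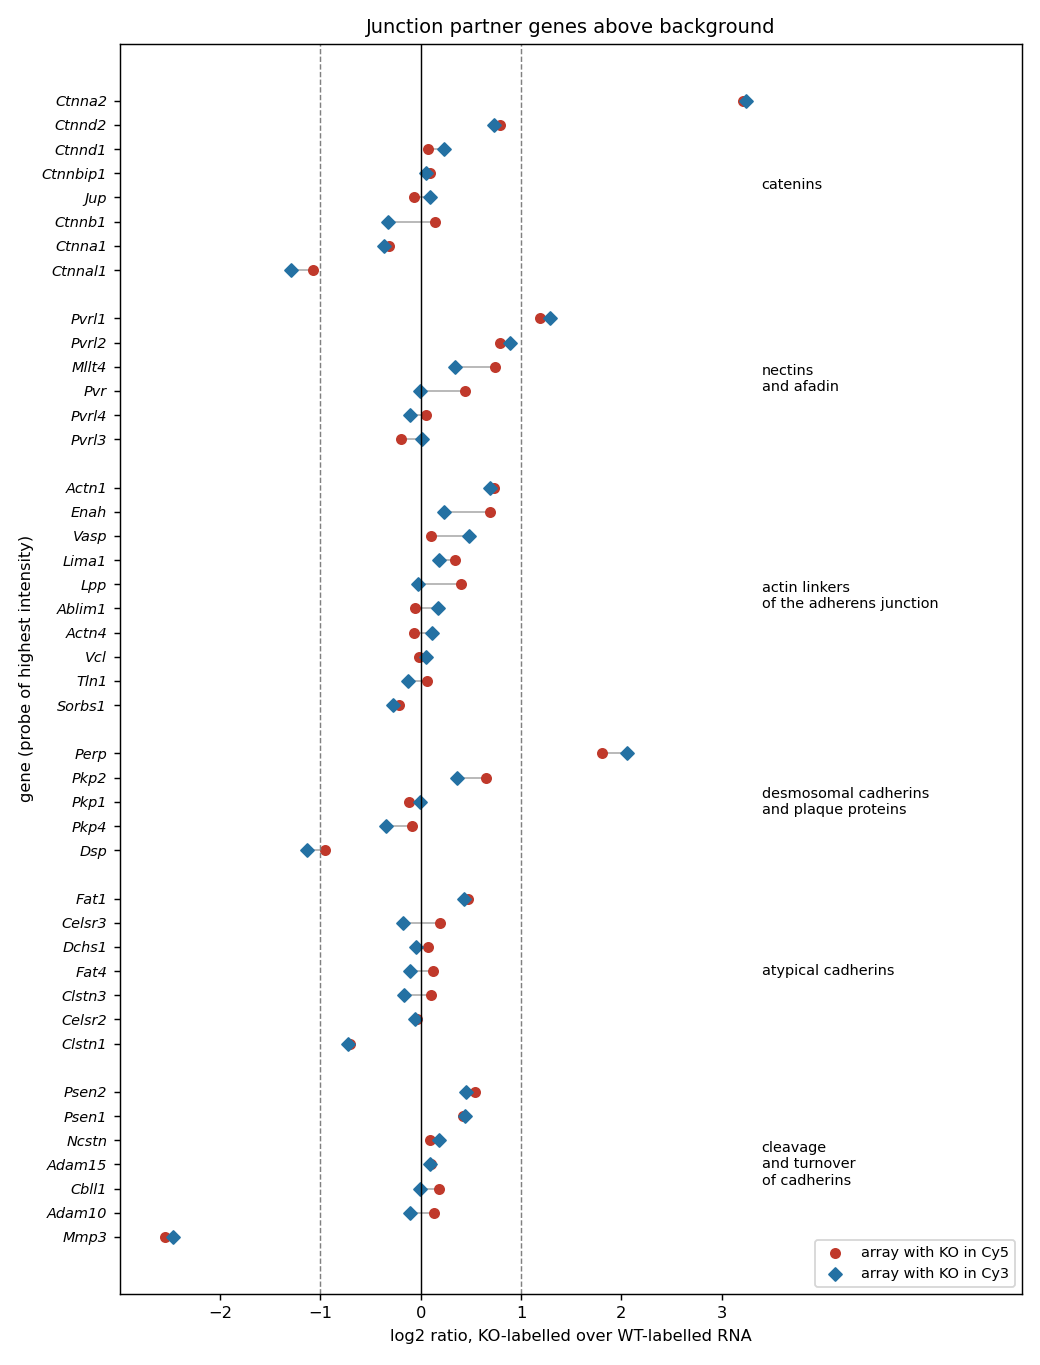
Log2 ratio of KO over WT (x axis) for the 43 junction partner genes above background (y axis), in 6 groups. Circles are the array with KO in Cy5, diamonds the array with KO in Cy3, and dashed lines mark 2-fold. Ctnna2, Perp and Pvrl1 lie beyond the line on the right and Ctnnal1 and Mmp3 beyond it on the left on both arrays.

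Of 11 transcription factors known to repress Cdh1 or to alter cadherin use, 10 were above background, with ratios from -1.60 to 0.58. Of these 8 were lower and 1 higher in the KO-labelled RNA on both arrays, and 1 was called lower. The entry named Tcf3, at -0.32 and counted among the 8, matched Tcf7l1 in RefSeq, so it need not be the factor intended. Among the 15877 array genes above background 6578 were lower and 6388 higher on both arrays, and 2.61% were called lower. The called regulator was Tcf4, an E-box binding factor, at 1914 and 1854 against 5737 and 5686 (mean -1.60, SD 0.02). A second Tcf4 probe gave -1.39 and the third -0.21.

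Markers of other cells were read beside these values. All 8 fibroblast markers were above background, 7 of them in both RNAs. The reference probe of Vim and 1 reference probe each of Col1a1 and Col1a2 carried an outlier flag and were left out. Col1a2 was then read from a cDNA clone probe. Of the 8, 5 were lower and 1 higher in the KO-labelled RNA on both arrays, with a median log2 ratio of -0.43. The lowest value, -0.89, was that of Vim. It came from another probe than the reference probe and was above background in only 1 RNA, so it is a weak reading of Vim. Their summed intensity was 120071 and 112247 in the KO-labelled RNA and 134250 and 141246 in the WT-labelled RNA. Thy1 alone read 46623 and 41963 against 57420 and 63797. The marker that was higher on both arrays was Fn1, with a mean log2 ratio of 0.89. Of 10 epithelial markers 5 were above background, and 1 was called, Krt19, which was higher in the KO-labelled RNA (mean 2.12, SD 0.04, and 4.09 by Feature Extraction). The summed intensity of the 10 was 1026 and 999 in the KO-labelled RNA and 784 and 769 in the WT-labelled RNA, while Cdh1 was at background. Krt19 alone read 386 and 312 against 91.0 and 70.4, so the difference in the sums follows that gene. Of the 5 above background, 1 was higher and 2 lower in the KO-labelled RNA on both arrays, with a median log2 ratio of -0.04. None of 7 endothelial markers was above background, Cdh5 included. Of 6 haematopoietic markers 3 were above background, and Cd14 was lower in the KO-labelled RNA (mean -1.05, SD 0.06). The summed haematopoietic intensity was 547 and 550 in the KO-labelled RNA against 745 and 739. Cd14 alone read 161 and 189 against 343 and 379, so most of this difference is that gene. Of the 3 above background, 1 was higher and 1 lower in the KO-labelled RNA on both arrays. The mesothelial marker Msln, the only one of 3 above background, was 1.82-fold higher in the KO-labelled RNA and was not called. Its signal in the WT-labelled RNA was not well above background. The part of other cells in the cadherin values was not tested.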

How the data were processed

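RNA from KO and WT mouse embryonic fibroblasts was labelled with Cy5 or Cy3 and hybridised to 2 Agilent whole mouse genome arrays. Per the labels, the authors read the scans with Agilent Feature Extraction 10.5.1.1 and deposited intensity per spot, that is mean signal and local background, beside a log10 ratio of Cy5 over Cy3. The deposited series table holds log2 ratios. On each array 99.8% of its values lay within 0.01 of the log2 KO over WT ratio of the processed signals, and its column medians were -0.02 and 0.04. Probe coordinates are on mm8 (NCBI36). Exon positions of probes were not analysed here.

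In R 4.3.3, limma 3.58.1 removed the local background by normexp with an offset of 50. Ratios were normalised by loess within each array, and averaged over spots. The offset draws ratios of dim probes towards 0. Control spots (1639 of 45018 per array) and outlier-flagged spots (390 and 378) were left out. The swapped array was turned before averaging. Median signals were 96.8 and 98.5 in Cy5 and 60.1 and 58.2 in Cy3, over backgrounds of 30.0 to 36.0, and the number of arrays limits the precision. The single-probe SD between arrays was 0.14 log2 units. Channel intensities were taken after Aquantile scaling, as were the folds of genes above background in only 1 RNA. Such a fold sets the brighter RNA's level against the higher of the dim probe's own signal and the lowest flagged signal on that array. These folds carry the offset of 50 and no error allowance, so they are not lower limits and other processing can give a smaller fold. For probes with repeated spots the background flag had to be set in a share of at least 0.5. Both arrays lie on 1 slide. The procedure was tested on simulated data.

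Named genes were those called, Cdh1, Cdh2, Cdh3, Cdh5 and Cdh11, the 10 other members of highest intensity in both RNAs, members whose probes lay over 1 log2 unit apart, the Lats genes, Ctnna1, Ctnnb1, Ctnnd1 and Jup, and called list genes. Other genes given by value were chosen after their values were seen. The members and lists were chosen with earlier results of these data known. Gene names are the files' own. Through accessions, 85 of the 116 probes matched RefSeq, which now calls Pcdh21 by the symbol Cdhr1. Alternatives covered background correction, scaling, probe choice, single arrays, detection and fold rules, limma with Benjamini-Hochberg adjustment and the methods' t-test.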

Additional observations from a re-analysis of the deposited data

How the results depend on the processing

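No paired analysis was possible because only 1 pair of RNAs was hybridised. The median of the member genes moved by less than the SD between arrays under all alternatives tried, from -0.13 to 0.01, and the sign of every called gene was kept. With no background subtraction the members called were 0 higher and 1 lower (Cdh13), since Cdh4 and Pcdh20 fell short of 2-fold on an array. With an offset of 10, Feature Extraction's log ratio or the deposited table, 2 members were called higher, Cdh4 and Pcdha9, and Cdh6 joined the lower ones. Median centring without loess left 1 member lower, because Cdh13 read -0.87 and -2.81 on the 2 arrays, and 1 partner lower. It also ended the calls of Ctnnal1 and of Pvrl1, at 2.04 and 0.50, leaving 2 partners higher. The mean over all probes called 0 members higher and 1 partner lower. A requirement of both RNAs above background left 0 members higher and 1 lower, Cdh13. A threshold of 1.5-fold called 2 members higher and 5 lower, adding Pcdha9, Pcdhb20, Pcdhb21 and Pcdhb22, with 6 partners higher and 4 lower. The share of array genes called at 1.5-fold or under the other alternatives is not given here. These counts therefore do not set the members or partners apart from the array. The methods' t-test called 1 partner lower, and after Benjamini-Hochberg adjustment 0 in each of the 4 counts. limma over both arrays called 1 member higher and 2 lower. Of 320 values recomputed for single genes, 269 moved by less than the SD between arrays and 51 by more, 31 of them towards larger size. Opposite signs arose 16 times, in genes not called and at most 0.18 in size. Signal over background limits Cdh4, Pcdh20 and the 33 genes not above background on both arrays.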
